A study of Mus musculus with 5 samples.

Results

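Interferon-stimulated genes were measured in GL261, a mouse glioma cell line grown in culture, after sodium propionate or sodium chloride. Propionate is a short-chain fatty acid, and sodium chloride served as the salt control. The list of 41 genes was chosen by name from genes known to be induced by interferons, and a gene's level was the sum of its transcripts in TPM, a library's transcripts scaled per length to a common total. All 41 were present among the 55482 genes of the libraries, and 39 were among the 13878 genes with a mean of at least 1 TPM that were tested. Total RNA was taken 24 h after the salt was added, with 1 uM given in the labels for both salts, a unit that the files cannot check. There were 3 chloride libraries (replicates 1, 2 and 3) and 2 propionate libraries (replicates 2 and 3). A first propionate replicate was not analysed here. Whether each library was its own culture was not stated in the labels, so p-values here measure the spread among samples that may be technical replicates only. Both groups were the same cell line in culture, with no interferon or other stimulus named in the labels.

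Type I interferons are secreted by cells that sense foreign or misplaced nucleic acid. They bind the receptor formed by IFNAR1 and IFNAR2, whose kinases JAK1 and TYK2 start a signal that reaches the nucleus through factors such as STAT2. STAT2 acts with IRF9 at the interferon-stimulated response element (ISRE) in the promoters of target genes. Genes that answer interferon gamma often hold another element, the gamma-activated site (GAS). The products of the target genes sense viral RNA, block its translation, degrade it, restrain viral budding, recruit lymphocytes and, as in the USP18 protein, dampen the pathway itself. Many tumour lines keep part of this programme active without added interferon.

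The promoters of the list were read from RefSeq sequences of the GRCm38.p6 build, as windows of 300 bases that ran from 250 before to 50 after each start. Windows were held for 30 of the 41 genes, 38 windows in all, and none was used for Dhx58, Ifi204, Ifi27l2a, Iigp1, Mx1, Mx2, Oas2, Parp14, Rtp4, Usp18 and Zbp1. The ISRE core was searched on both strands as GAAA, any 2 bases, then GAAA, and the GAS core as TTCNNNGAA, which reads the same on both strands. The ISRE core was in 22 of the 38 windows (57.9%), against 1131 of all 32851 windows (3.44%). The GAS core was in 8 of the 38 (21.1%), against 2726 of all windows (8.30%). By gene, 21 had an ISRE core, 8 a GAS core, 5 both and 6 neither. A match describes these letters only and is not a measured binding site.

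Stretches of 100 bases upstream of 7 genes are printed 5′ to 3′ in the direction of transcription, with ISRE cores in capitals on either strand, chosen after their values were seen: Isg15, Ifit3 and Bst2 for their levels, Cxcl10, Gbp3 and Ddx60 for their differences, and Gbp7 to set beside Gbp3. Isg15 is at chr4:156200827-156200926 on the minus strand and holds 3 overlapping cores. Ifit3 is at chr19:34583343-34583442 on the plus strand, and the stretch of its neighbour Ifit3b at chr19:34607739-34607838 was identical in 100 of 100 bases. Bst2 is at chr8:71537533-71537632 on the minus strand. Cxcl10 is at chr5:92349033-92349132 on the minus strand. Gbp3 is at chr3:142559926-142560025 and Gbp7 at chr3:142530236-142530335, both on the plus strand. Ddx60 is at chr8:61927987-61928086 on the plus strand, with 2 separate cores of the same letters.
Isg15: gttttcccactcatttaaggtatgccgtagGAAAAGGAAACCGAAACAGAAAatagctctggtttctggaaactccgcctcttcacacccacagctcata
Ifit3: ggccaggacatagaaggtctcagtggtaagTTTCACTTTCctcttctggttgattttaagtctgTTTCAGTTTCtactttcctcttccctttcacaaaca
Bst2: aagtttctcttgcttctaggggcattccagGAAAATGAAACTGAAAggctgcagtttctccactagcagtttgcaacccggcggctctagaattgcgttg
Cxcl10: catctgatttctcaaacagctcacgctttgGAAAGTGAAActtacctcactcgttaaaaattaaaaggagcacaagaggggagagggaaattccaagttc
Gbp3: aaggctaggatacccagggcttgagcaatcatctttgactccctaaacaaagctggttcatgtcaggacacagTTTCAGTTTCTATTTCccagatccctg
Gbp7: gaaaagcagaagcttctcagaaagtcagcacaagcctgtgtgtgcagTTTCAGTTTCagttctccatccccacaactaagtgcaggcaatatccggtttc
Ddx60: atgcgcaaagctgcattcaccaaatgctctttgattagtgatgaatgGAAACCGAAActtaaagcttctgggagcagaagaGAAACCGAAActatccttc

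Interferon-stimulated genes were expressed in both groups, and few differed between them beyond the spread of the libraries. Of the 39 tested, Zbp1 fell with propionate and no gene rose, at an adjusted p under 0.05 (limma on log2(TPM + 1), Benjamini-Hochberg over all 13878 genes). This was 2.56% of the list called lower, where 0.490% of all tested genes were called lower and 1.31% higher. The fitted change was below 0 in 28 genes of the list (71.8%), against 55.5% of all tested genes. Its median was -0.20 on the log2 scale (quartiles -0.38 and 0.01), against -0.03 for all genes (quartiles -0.16 and 0.11). At an unadjusted p under 0.05, 12 genes of the list were lower (30.8%, against 8.89% of all genes) and 0 were higher (against 7.94% of all). Every propionate library was below every chloride library in 13 genes (33.3%, against 19.7% of all), and above in Ifi27l2a and Rsad2 (5.13%, against 14.9% of all). The list was chosen with earlier results of these data known, so these shares describe it and carry no test. Fitted changes ran from -0.68 to 0.25, and the 95% interval included 0 in 27 of the 39 genes. In RNA from bulk cultures, fewer cells expressing a gene and less RNA per cell cannot be told apart.

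**Figure D1:**
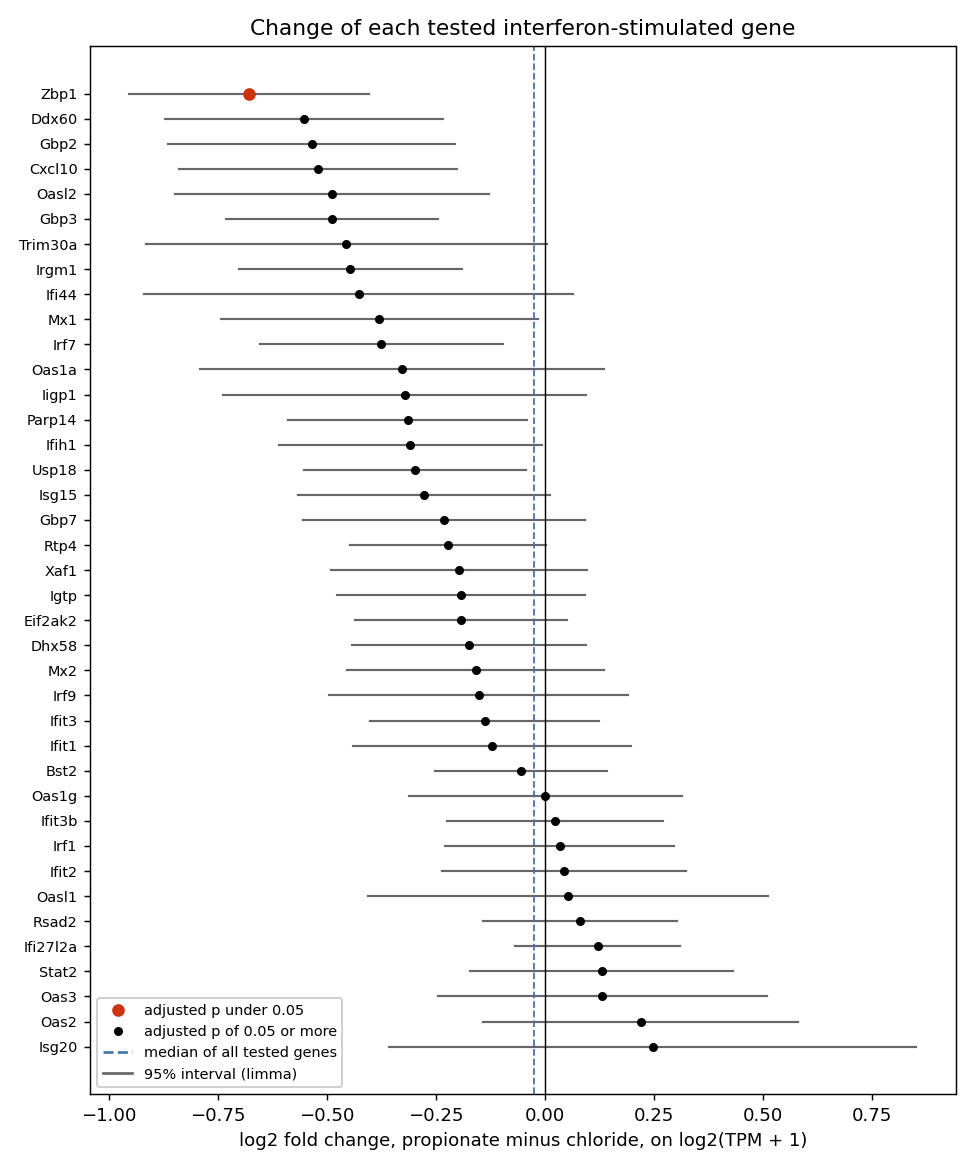
Fitted change of each tested interferon-stimulated gene, sodium propionate against sodium chloride, on the log2(TPM + 1) scale, with its 95% interval, ordered by change. All 6 interferon-inducible GTPases lie below 0 and Zbp1 has the lowest value, -0.68, while 27 of 39 intervals include 0.

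Levels varied over a wide range within the list. The median gene of the list had a mean of 29.6 TPM over the 5 libraries, against 11.6 TPM for the median tested gene, and 31 of the 39 lay above that median. Of the 41 genes, 32 had a mean of at least 10 TPM, 14 of at least 50 and 6 of at least 100. In all, 10 lay above 90% of tested genes. Ifi203 and Ifi204, members of a family of DNA-binding sensors, lay under 1 TPM on average and were not tested. Ifi203 ranged from 0.524 to 1.08 TPM and Ifi204 from 0.168 to 0.894 TPM. Summed over the list, the level was 3503, 3666 and 3077 TPM in chloride replicates 1, 2 and 3 and 3120 and 3219 TPM in propionate replicates 2 and 3. Both propionate sums lay within the chloride range. Bst2 and Ifi27l2a together made up a large part of these sums.

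**Figure D2:**
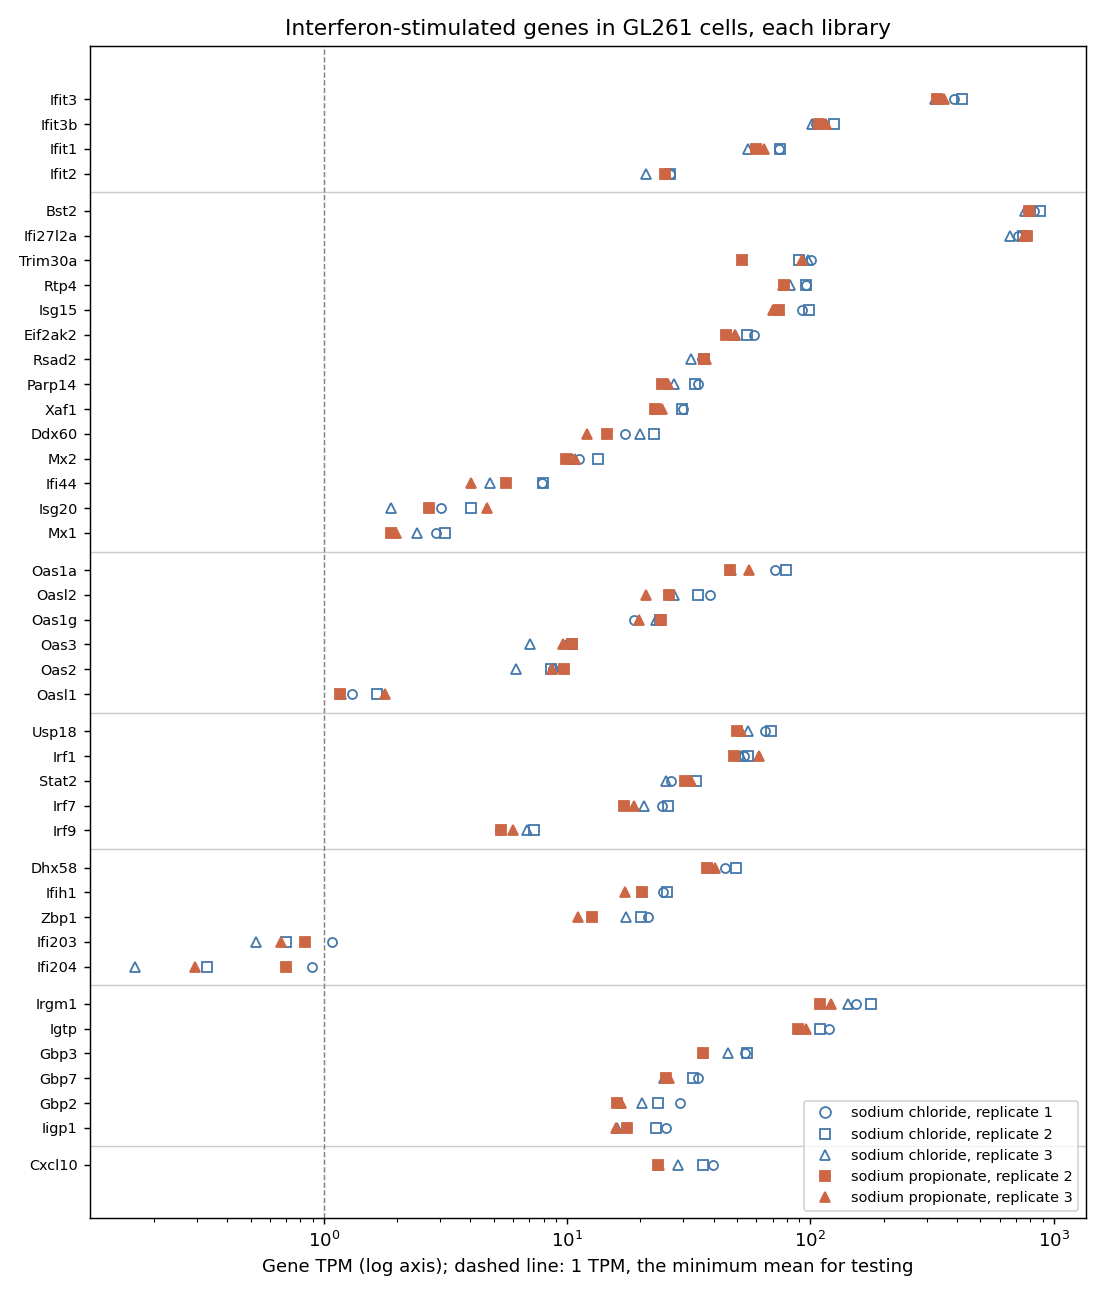
Level of each of the 41 interferon-stimulated genes in the 5 libraries, in TPM on a log axis, grouped by role. Bst2 and Ifi27l2a lie highest, at 664 to 880.4 TPM, and Ifi204 lies lowest, at 0.168 to 0.894 TPM.

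The nucleic acid sensors held the only gene of the list that passed the test. Zbp1 encodes a sensor of Z-form nucleic acid that can start necroptosis and is itself induced by interferon. It lies on chromosome 2 (173206612 to 173218923, minus strand, mm10; ENSMUSG00000027514). Its level was 21.4, 20.1 and 17.5 TPM in chloride replicates 1, 2 and 3 and 12.6 and 11.1 TPM in propionate replicates 2 and 3. All chloride libraries were above both propionate libraries. The means were 19.6 ± 1.99 TPM (SD, n = 3) and 11.9 ± 1.07 TPM (SD, n = 2), a fold of 0.605. The fitted log2 change was -0.68 (SE 0.12, 95% interval -0.95 to -0.40), with an adjusted p of 0.0344 in limma. Without chloride replicate 1 the limma adjusted p was 0.102, without chloride replicate 2 it was 0.0849, without propionate replicate 2 it was 0.0826 and without propionate replicate 3 it was 0.169. The adjusted p also exceeded 0.05 with no minimum level (0.182), with annotated transcripts alone (0.164) and with voom weights on aligned bases (0.0632). The change stayed below 0 in every setting run, from -0.84 to -0.51.

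Transcripts of Zbp1 differed in how far apart the groups were. The short annotated transcript ENSMUST00000109116 (793 bases, 4 exons) was at 15.4, 14.3 and 14.0 TPM with chloride and at 8.84 and 7.23 TPM with propionate. The annotated transcript ENSMUST00000029018 (1999 bases, 8 exons) was at 3.24, 2.92 and 1.13 TPM with chloride and at 1.05 and 0.151 TPM with propionate. A transcript assembled by StringTie, MSTRG.13847.3, was at 2.45, 2.05 and 1.72 TPM with chloride and at 2.09 and 2.87 TPM with propionate. The remaining annotated transcript, ENSMUST00000146802 (3361 bases, 7 exons), was at 0.264, 0.776 and 0.587 TPM with chloride and at 0.653 and 0.870 TPM with propionate. The first 2 of these transcripts were lower in every propionate library than in every chloride library, and the other 2 overlapped between the groups. No test was run on single transcripts.

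The RNA helicases among the sensors gave smaller differences. Ifih1 encodes MDA5, which binds long double-stranded RNA. It was at 23.6 ± 2.91 TPM with chloride (SD, n = 3) and at 18.8 ± 2.22 TPM with propionate (SD, n = 2), with an adjusted p of 0.284 in limma. Dhx58 encodes LGP2, a relative that lacks the signalling domains, and was at 44.4 ± 5.30 and 39.0 ± 1.85 TPM (adjusted p 0.495 in limma). The groups overlapped for Ifih1, where the lowest chloride library, 20.3 TPM, was below the highest propionate library, 20.4 TPM. For Dhx58 the chloride libraries reached down to 39.1 TPM and the propionate libraries up to 40.3 TPM, also an overlap.

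The 6 interferon-inducible GTPases of the list all had fitted changes below 0 (against 55.5% of all tested genes), with a median of -0.38. None of them passed the test. Among tested GBP and IRG genes outside the list, changes ran from -0.68 in Ifi47 to 0.06 in Gbp4, and only Gbp4 was above 0. These proteins of the immunity-related (IRG) and guanylate-binding (GBP) families assemble on the vacuoles of intracellular pathogens. All propionate libraries were below all chloride libraries in Gbp2, Gbp3 and Irgm1, as in 19.7% of all tested genes. The groups overlapped in Gbp7, Igtp and Iigp1. Gbp3 (chromosome 3, 142560026 to 142573209, plus strand) was at 53.8, 54.7 and 45.8 TPM with chloride and at 36.2 and 36.3 TPM with propionate. Its fold was 0.705 and its log2 change -0.49 (SE 0.106), with an adjusted p of 0.0616 in limma. Rescaling to the median of ratios gave 0.0378, TPM over protein-coding genes 0.0405 and voom weights 0.0231, on the other side of the threshold.

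Irgm1 encodes a regulator of the IRG family that protects the cell's own membranes. It lies on chromosome 11 (48861968 to 48871683, minus strand) and was at 154, 178 and 143 TPM with chloride and at 109.7 and 121 TPM with propionate. Its log2 change was -0.45 (SE 0.112, adjusted p 0.0930 in limma), and the highest propionate library lay below the lowest chloride library. Gbp2, which encodes another guanylate-binding protein (chromosome 3, 142620602 to 142638008, plus strand), was at 29.0, 23.7 and 20.4 TPM with chloride and at 16.0 and 16.6 TPM with propionate. Its log2 change was -0.54 (SE 0.144, adjusted p 0.11 in limma). The differences of Irgm1 and Gbp2 passed the threshold only with voom weights among the 13 other settings tried, at 0.0197 and 0.0415.

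Igtp, which encodes the GTPase IRGM3, was among the highest of the list. It was at 119, 109.8 and 90.5 TPM with chloride and at 89.1 and 95.9 TPM with propionate (log2 change -0.19, adjusted p 0.474 in limma). The groups overlapped, since propionate replicate 3 was above chloride replicate 3. In propionate replicate 3 the assembled MSTRG.3441.1, which overlaps more than 1 gene, held 52.7 TPM. It was at 1.67, 0.072 and 3.41 TPM with chloride and at 4.36 TPM in propionate replicate 2. The annotated ENSMUST00000035266 was at 98.2, 99.7 and 62.6 TPM with chloride and at 73.8 and 29.0 TPM with propionate. Gbp7 was at 30.8 ± 5.09 TPM with chloride (SD, n = 3) and 25.9 ± 0.419 TPM with propionate (SD, n = 2). Iigp1 was at 21.6 ± 4.98 and 16.8 ± 1.28 TPM. For both, chloride replicate 3 lay among or below the propionate libraries: 25.1 TPM for Gbp7 and 16.0 TPM for Iigp1.

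The one chemokine of the list, Cxcl10, was lower in both propionate libraries and missed the threshold. CXCL10 draws T cells and natural killer cells through the receptor CXCR3. The gene, whose promoter stretch with a single ISRE core is printed above (chromosome 5, 92346638 to 92348889, minus strand), was at 39.6, 36.1 and 28.5 TPM with chloride and at 23.6 and 23.8 TPM with propionate. Its fold was 0.682 and its log2 change -0.52 (SE 0.139, unadjusted p 0.00533), with an adjusted p of 0.108 in limma. Every chloride library was above both propionate libraries. Without chloride replicate 3, its lowest chloride library, the change was -0.65 with an adjusted p of 0.0399 in limma.

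The antiviral effectors held the highest levels of the list and none of the 14 passed the test. The fitted change was below 0 in 11 and above 0 in 3, with a median of -0.21. Bst2 encodes tetherin, which holds budding virus at the cell surface. It was at 834, 880.4 and 766 TPM with chloride and at 788 and 801 TPM with propionate. Both propionate libraries lay within the chloride range, and the log2 change was -0.05 (95% interval -0.25 to 0.14). Ifi27l2a, which encodes a small hydrophobic protein of the IFI27 family, was at 713, 746 and 664 TPM with chloride and at 779.7 and 758 TPM with propionate. Both propionate libraries were above all chloride libraries, and the log2 change of 0.12 did not pass the test (adjusted p 0.51 in limma).

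Isg15 encodes a ubiquitin-like protein that is attached to other proteins after interferon. It was at 92.0, 98.4 and 74.2 TPM with chloride and at 74.2 and 70.0 TPM with propionate. Chloride replicate 3 and propionate replicate 2 were nearly equal, and the log2 change was -0.28 (SE 0.126, adjusted p 0.315 in limma). Rtp4, which encodes a receptor-transporting protein that binds viral RNA, was at 95.7, 95.6 and 82.4 TPM with chloride and at 78.2 and 77.5 TPM with propionate. Its groups did not overlap, with a log2 change of -0.22 (SE 0.0982, adjusted p 0.301 in limma).

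Trim30a, which encodes a tripartite-motif protein that damps Toll-like receptor signalling, differed through 1 library. It was at 100.2, 89.7 and 97.6 TPM with chloride and at 52.5 and 92.0 TPM with propionate. Propionate replicate 3 lay within the chloride range, while propionate replicate 2 lay far below it. The log2 change was -0.46 (SE 0.2, adjusted p 0.3 in limma), and without propionate replicate 2 it was -0.06.

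Ddx60 and Parp14 were among the genes of the list with the smallest p. Ddx60 encodes a helicase-like protein that takes part in the response to viral RNA, and its promoter stretch holds 2 separate ISRE cores. On chromosome 8 (61928087 to 62038244, plus strand), it was at 17.3, 22.9 and 19.9 TPM with chloride and at 14.6 and 12.1 TPM with propionate. Its fold was 0.665 and its log2 change -0.55 (SE 0.139, adjusted p 0.0938 in limma), with no overlap between the groups. Parp14, an ADP-ribosyltransferase gene, was at 34.3, 33.6 and 27.4 TPM with chloride and at 24.5 and 26.0 TPM with propionate. Its groups did not overlap either, with a log2 change of -0.32 (SE 0.119, adjusted p 0.235 in limma).

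The remaining effectors differed less or were low. Eif2ak2, which encodes the double-stranded RNA kinase PKR, was at 54.0 ± 4.80 TPM with chloride (SD, n = 3) and 47.0 ± 2.89 TPM with propionate (SD, n = 2). Rsad2, which encodes viperin, was at 35.0 ± 2.35 and 37.0 ± 0.428 TPM, with both propionate libraries just above the highest chloride library. Xaf1, which encodes an antagonist of inhibitors of apoptosis, was at 27.6 ± 3.77 and 23.8 ± 0.987 TPM. None of these had an adjusted p under 0.4 in limma. Mx2 and Mx1 are of the dynamin-like GTPase family, and Mx2 is annotated as a polymorphic pseudogene. They were at 11.7 ± 1.55 and 2.82 ± 0.373 TPM with chloride and at 10.3 ± 0.641 and 1.93 ± 0.0600 TPM with propionate. The Mx1 groups did not overlap (adjusted p 0.275 in limma). Ifi44 was at 6.88 ± 1.80 and 4.80 ± 1.11 TPM, and the exonuclease gene Isg20 at 2.97 ± 1.06 and 3.70 ± 1.41 TPM, with overlapping groups.

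The IFIT family, whose proteins bind viral RNA and block its translation, gave no difference beyond the spread. The 4 genes lie on chromosome 19, and the fitted change was below 0 in 2 and above 0 in 2, with a median of -0.05. Ifit3 was at 389.9, 418 and 325 TPM with chloride and at 330.0 and 353 TPM with propionate. Ifit3b was at 105, 125 and 101 TPM with chloride and at 108 and 115 TPM with propionate. Ifit1 was at 74.0, 75.2 and 55.6 TPM with chloride and at 59.8 and 64.4 TPM with propionate. In all 3 genes both propionate libraries lay within the chloride range, above chloride replicate 3. Ifit2 was at 24.7 ± 3.14 TPM with chloride (SD, n = 3) and 25.3 ± 0.132 TPM with propionate (SD, n = 2), which also overlapped. The smallest adjusted p in the family was 0.596, for Ifit3.

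Ifit3 and Ifit3b share sequence, so the split of reads between them is uncertain. Of all 50-base windows of the Ifit3 transcripts, 51.2% were also found in Ifit3b, and 44.5% of those of Ifit3b in Ifit3. Their sum was 495, 543 and 427 TPM with chloride and 438 and 469 TPM with propionate. The sum overlapped between the groups as each gene did.

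The OAS family includes enzymes that make the oligoadenylates that switch on RNase L, and the signs of its members' fitted changes were mixed. The fitted change was below 0 in 2 of the 6 genes, Oasl2 and Oas1a, and above 0 in the other 4, with a median of 0.03. Among these 4, Oas1g was in effect unchanged, at 0.0004, and its sign reversed in 5 of the other settings. Oasl2 (chromosome 5, 114896936 to 114912234, plus strand) was at 38.8, 34.6 and 27.4 TPM with chloride and at 26.1 and 21.01 TPM with propionate. Its groups did not overlap, and its log2 change of -0.49 (SE 0.157) had an adjusted p of 0.17 in limma. Oas3 was at 9.20 ± 1.87 TPM with chloride (SD, n = 3) and 10.04 ± 0.651 TPM with propionate (SD, n = 2). Oas2 was at 7.83 ± 1.46 and 9.19 ± 0.790 TPM, and Oasl1 at 1.38 ± 0.2505 and 1.48 ± 0.434 TPM. Their groups overlapped, and no adjusted p was under 0.5 in limma.

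Oas1a and Oas1g, neighbours on chromosome 5, shared 57.6% of the 50-base windows of Oas1a and 45.2% of those of Oas1g. Oas1a was at 66.0 ± 16.7 TPM with chloride and 51.3 ± 6.68 TPM with propionate, and Oas1g at 22.0 ± 2.76 and 22.0 ± 3.11 TPM. Their sum was 90.3, 103 and 70.3 TPM with chloride and 70.8 and 75.9 TPM with propionate. Neither gene nor the sum separated the groups, and the sum was lowest in chloride replicate 3.

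The signalling and feedback genes had a median change of -0.15 over 5 genes, below 0 in 3, and none passed the test. Irf7, the amplifier of type I interferon production (chromosome 7, 141262706 to 141266481, minus strand), was at 24.6, 26.0 and 20.7 TPM with chloride and at 17.2 and 18.9 TPM with propionate. Its log2 change was -0.38 (SE 0.121, adjusted p 0.172 in limma). Usp18 encodes the protease that removes ISG15 and restrains the receptor (chromosome 6, 121245906 to 121270917, plus strand). It was at 64.8, 69.0 and 55.5 TPM with chloride and at 49.8 and 52.0 TPM with propionate, with a log2 change of -0.30 (SE 0.111, adjusted p 0.229 in limma). In both genes all propionate libraries were below all chloride libraries. Stat2 was at 28.7 ± 4.54 TPM with chloride (SD, n = 3) and 31.3 ± 1.26 TPM with propionate (SD, n = 2), and its partner Irf9 at 6.48 ± 1.07 and 5.68 ± 0.442 TPM. Irf1, which encodes a transcription factor induced by interferon gamma, was at 53.5 ± 1.78 and 55.1 ± 9.06 TPM. The groups overlapped in Stat2, Irf9 and Irf1.

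Libraries of one group differed among themselves as much as the list differed between groups. Against the mean of the chloride libraries, the median log2 difference over the 39 genes was 0.07, 0.13 and -0.18 in chloride replicates 1, 2 and 3 and -0.23 and -0.14 in propionate replicates 2 and 3. Chloride replicate 3 thus lay between the 2 propionate libraries. The same median over all tested genes was 0.04, 0.00 and -0.04 with chloride and -0.08 and 0.03 with propionate. Chloride replicate 3 was the lowest chloride library in 35 of the 39 genes, a count that was not taken over all tested genes. It was the lowest of all 5 libraries in 12 genes (30.8%, against 25.05% of all tested genes). Propionate replicate 2 was lowest in 17 (43.6%, against 37.9%) and propionate replicate 3 in 8 (20.5%, against 12.7%). Without chloride replicate 3 the median change of the list was -0.31, 32 genes were below 0 (82.1%, against 58.8% of all tested genes), 20 were lower at an unadjusted p under 0.05 (51.3%, against 8.08%), and Zbp1 and Cxcl10 were called. Leaving out any other single library gave no called gene, with medians from -0.23 to -0.14 and 8 genes lower at an unadjusted p under 0.05 each time (20.5%, against 5.44 to 11.8% of all).

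The roles did not share this placement equally. The median of the GTPases was -0.23 in chloride replicate 3 and -0.37 and -0.39 in propionate replicates 2 and 3, so both propionate libraries were lower than it. The median of the OAS family was -0.28 in chloride replicate 3, and 0.01 and -0.03 in the propionate libraries. The IFIT family gave -0.21 in chloride replicate 3, and -0.10 and -0.01 in the propionate libraries. In the same order of libraries, the nucleic acid sensors gave -0.17, -0.22 and -0.42, and Cxcl10 -0.27, -0.53 and -0.51. The antiviral effectors gave -0.141, -0.234 and -0.145, and the signalling and feedback genes -0.156, -0.220 and -0.085. Both propionate libraries thus lay above chloride replicate 3 for the OAS and IFIT families. They lay below it for the GTPases, sensors, Cxcl10 and, narrowly, the antiviral effectors, and on either side for the signalling genes. The difference between these roles was not tested.

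**Figure D3:**
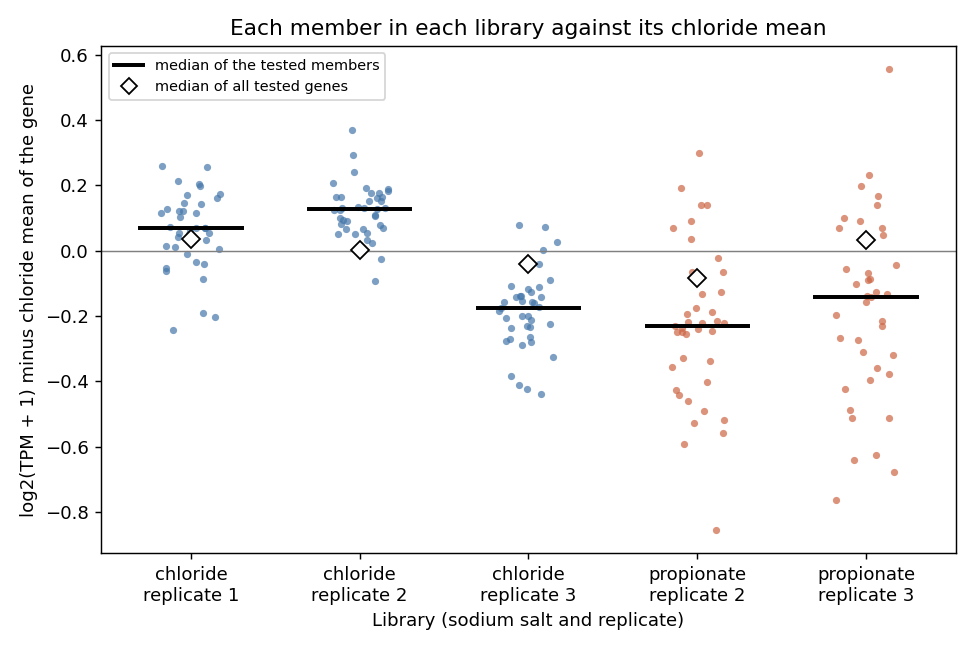
Log2 difference of each tested interferon-stimulated gene from the mean of the chloride libraries, by library, on the log2(TPM + 1) scale; each point is a gene, the bar is the median of the list and the diamond the median of all tested genes. The median of chloride replicate 3, -0.18, lies between those of propionate replicates 2 and 3, -0.23 and -0.14.

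The libraries also differed in the share of protein-coding RNA. Protein-coding genes took 49.1, 47.7 and 46.7% of all TPM with chloride and 45.2 and 50.3% with propionate. Propionate replicate 2 had the smallest share and was the lowest of 5 libraries for 37.9% of all tested genes, and propionate replicate 3 had the largest share and was the highest for 34.1%. The part of these shares in the differences of single genes was not tested. With TPM taken over protein-coding genes alone, the median of the list was -0.20 and 28 genes were below 0, and Zbp1 and Gbp3 were called lower. The aligned depth, summed from coverage and transcript length, was 6.53 to 7.03 Gb per library. The SD of log2 differences over genes was 0.321 to 0.342 between libraries of a group and 0.352 to 0.428 between libraries of different groups, and no pair of libraries was identical.

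Fitted changes were set beside the promoter letters as a description. The median change was -0.21 over the 20 tested genes with an ISRE core, 15 of them below 0. It was -0.15 over the 9 tested genes with a window and no ISRE core, 5 of them below 0. The GAS core, which Ifit2, Irf1 and Isg20 among these 9 hold, was not used for this split. Ifit3 and Ifit3b, with identical stretches, had log2 changes of -0.14 and 0.02. Gbp3 and Gbp7, whose stretches both hold the run TTTCAGTTTC, had -0.49 and -0.23. No test of the motif was run.

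Assembled transcripts carried part of the levels, and for some genes the split among transcripts changed from library to library. The 41 genes had 185 annotated transcripts, and 46 transcripts assembled by StringTie were counted in 24 of them. The leading transcript was the same in all 5 libraries in 25 genes and differed in 16. Over all libraries, assembled transcripts held 95.5% of the TPM of Usp18, 69.5% of Trim30a, 62.4% of Mx1 and 56.5% of Oas1a. In Usp18 one assembled transcript, MSTRG.19572.1, led in every library, at 62.7, 65.1 and 52.3 TPM with chloride and 48.0 and 50.01 TPM with propionate. The order of the libraries was that of the whole gene.

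In Oas1a and Trim30a the leading transcript switched between libraries of the same group. The annotated Oas1a transcript ENSMUST00000080322 was at 17.2, 17.5 and 47.2 TPM with chloride and 46.6 and 2.21 TPM with propionate. The assembled MSTRG.17915.4, which runs across Oas1g and Oas1a, was at 54.2 and 61.6 TPM in chloride replicates 1 and 2, at 0 in chloride replicate 3 and propionate replicate 2, and at 11.3 TPM in propionate replicate 3. Another assembled transcript, MSTRG.17915.5, led in propionate replicate 3 at 42.6 TPM and was at 0 in the other libraries. In Trim30a, MSTRG.21108.1 was at 64.5, 7.23 and 6.20 TPM with chloride and 22.3 and 66.6 TPM with propionate, while MSTRG.21108.8 was at 0.451, 47.7 and 64.1 TPM and at 0.140 and 0.302 TPM. These switches did not follow the groups for Oas1a, and the values of its single transcripts were spread wider than those of the gene. With annotated transcripts alone, the log2 change of Gbp3 was -1.27 in place of -0.49 and that of Oas1a was -1.04 in place of -0.33, with adjusted p of 0.083 and 0.755 in limma. That setting gave -0.77 in place of -0.19 for Igtp, 0.62 in place of 0.02 for Ifit3b, 0.30 in place of 0.04 for Ifit2 and -0.38 in place of -0.16 for Mx2. It gave smaller changes for Gbp2, -0.32 in place of -0.54, and Oasl2, -0.23 in place of -0.49. None of these 6 passed the threshold there.

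**Figure D4:**
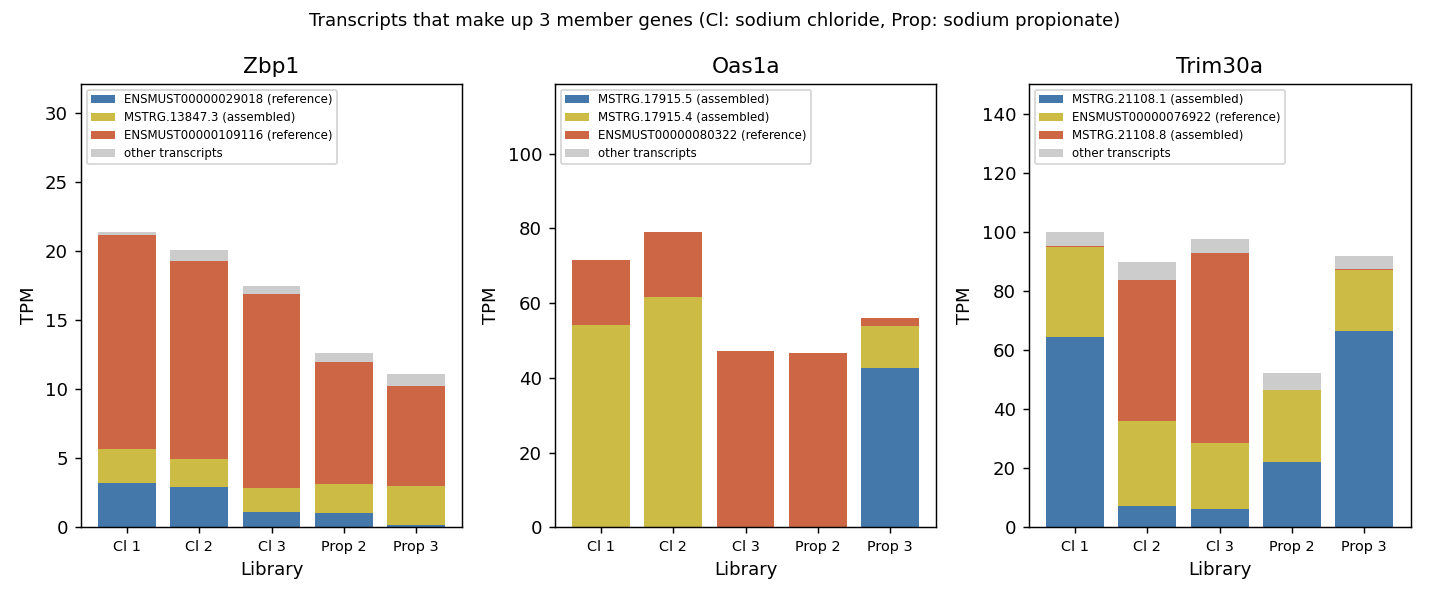
Stacked bars of the TPM of the transcripts of Zbp1, Oas1a and Trim30a in each of the 5 libraries, with the 3 leading transcripts in colour and the others in grey. The 2 Zbp1 transcripts marked as reference are lower in the propionate libraries, while the leading Oas1a transcript differs between libraries of the same group.

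Exons of other annotated genes covered a small part of the exon bases of the list. Assembled transcripts that overlap more than 1 gene held 56.5% of the TPM of Oas1a, 48.1% of Eif2ak2 and 12.3% of Igtp over all libraries. In the annotation, exons of 6 genes of the list were shared with another gene on the same strand, by up to 13.9% of the exon bases in Rtp4 and 11.3% in Gbp7. A gene on the opposite strand overlapped exons of 8, by 5.91% in Cxcl10 and 4.44% in Usp18. No strand option stood in the quantification command, so reads there may not be told apart by strand. Zbp1, Ddx60 and Gbp3 had no such overlap.

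The rest of the interferon pathway was read from 143 further genes in 6 lists, of which 142 were in the libraries and 102 were tested. None was called higher (against 1.31% of all tested genes) and 1 was called lower (against 0.490% of all). The median log2 change was -0.07, against -0.03 for all tested genes. Of the 21 ligand genes none reached a mean of 1 TPM and 12 were listed at 0 in all libraries. Ifnb1, the gene of interferon beta, was at 0.203, 0.569 and 0.200 TPM with chloride and 0.0401 and 0.149 TPM with propionate. These levels lay under the minimum and were not tested.

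Receptors, signal transducers, sensors and negative regulators held no called gene at the reported settings. Among 5 tested receptor genes, the 2 with the smallest p were Il10rb, a subunit of the interferon lambda and IL-10 receptors, at 29.1 ± 1.13 and 26.3 ± 3.17 TPM, and Ifngr2, of the interferon gamma receptor, at 6.57 ± 0.658 and 7.35 ± 0.527 TPM. Ifnar1, named for its role after its values were seen, was at 24.6 ± 2.13 TPM with chloride and 24.96 ± 2.25 TPM with propionate. Among 8 tested transducers, Stat3 was at 36.4 ± 2.87 and 46.6 ± 3.21 TPM, a log2 change of 0.35 (adjusted p 0.143 in limma; 0.0382 with median-of-ratios scaling, 0.0467 with protein-coding TPM and 0.0209 with voom), and Irf5 at 0.747 ± 0.262 and 1.496 ± 0.790 TPM. The groups did not overlap in Stat3 and Irf5, where propionate was higher, and overlapped in the others. For Irf5 the margin was narrow, with chloride replicate 3 at 0.936 TPM and the propionate libraries at 0.937 and 2.05 TPM.

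Among 12 tested sensors and adaptors, Ikbke, the gene of the kinase IKK epsilon, was at 3.40 ± 0.104 and 4.66 ± 0.641 TPM (adjusted p 0.238 in limma). Ddx58, which encodes the RNA sensor RIG-I, was at 112 ± 12.1 and 93.7 ± 2.35 TPM (adjusted p 0.285 in limma). Among 13 tested negative regulators and nucleases, Socs3, the feedback inhibitor of cytokine receptors, was at 8.13, 7.46 and 7.59 TPM with chloride and at 10.6 and 15.7 TPM with propionate. Its log2 change of 0.67 had an adjusted p of 0.0794 in limma, and the 2 propionate libraries were above all chloride libraries but far apart. The adjusted p was 0.0426 with median-of-ratios scaling, 0.0427 with protein-coding TPM, 0.0215 with voom and 0.0459 without propionate replicate 2. Rnaseh2a, a subunit of RNase H2, was at 33.3 ± 0.839 and 28.8 ± 2.51 TPM (adjusted p 0.337 in limma).

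Among 64 tested other interferon-inducible genes, Nmi fell with propionate and none rose. Nmi encodes a protein first found as a partner of MYC proteins. It was at 22.0, 24.2 and 23.3 TPM with chloride and at 15.1 and 16.6 TPM with propionate, with all propionate libraries below all chloride libraries. The log2 change was -0.52 (SE 0.101, adjusted p 0.0467 in limma). The call was lost when any 1 library was left out, with changes of -0.59 to -0.46 and adjusted p from 0.0988 to 0.158. It was also lost with no minimum level (0.159) and with annotated transcripts alone (change -0.98, adjusted p 0.217). In this list 48 of the 64 genes were below 0 (against 55.5% of all tested genes), with a median of -0.13 (against -0.03). At an unadjusted p under 0.05 in limma, 11 were lower (against 8.89% of all) and 2 higher (against 7.94% of all). These counts describe the list and carry no test.

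Marker genes of other cells were under 1 TPM on average, apart from Cd14 and Lyz2 among leukocyte genes and 1 fibroblast or pericyte gene, Pdgfrb. Of 10 genes of a glial or mesenchymal tumour line, 8 were above 1 TPM, and their sum was 5851 to 7461 TPM with chloride and 6467 to 7256 TPM with propionate, nearly all of it Vim. Within it Pdgfra rose, from 11.7 ± 0.628 to 22.5 ± 0.128 TPM (adjusted p 0.00726 in limma), and Fabp7 rose, from 13.5 ± 0.817 to 23.7 ± 3.14 TPM (adjusted p 0.0198 in limma). S100b was at 202 ± 6.82 and 157 ± 14.3 TPM, with no overlap (adjusted p 0.0938 in limma). Of 16 leukocyte genes, 14 were under 1 TPM, Itgam, Tyrobp, Itgax and Siglech were listed at 0 in all libraries, and Ptprc was at most 0.0457 TPM. Their sum was 12.7 to 14.6 TPM with chloride and 19.0 to 21.6 TPM with propionate, mostly Lyz2, at 11.3 ± 0.769 and 16.9 ± 1.74 TPM. All 5 endothelial genes were under 1 TPM, with Cdh5 and Kdr at 0, and sums of 0.0246 to 0.0902 TPM with chloride and 0.137 to 0.157 TPM with propionate. The 4 fibroblast and pericyte genes, with Lum at 0, summed to 0.626 to 1.01 TPM and 1.96 to 2.51 TPM. The leukocyte, endothelial and fibroblast sums were higher in both propionate libraries, and the part of these markers and those of the line in the values of interferon-stimulated genes was not tested.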

How the data were processed

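Per the labels' protocols, a stranded kit turned the total RNA of 5 GL261 samples into libraries. The tools named in the submitters' processing notes were bcl2fastq, fastp, HISAT2 and StringTie, with the mm10 build. The authors deposited 1 transcript table per library, made by StringTie 2.1.1 against a merged annotation, per the file headers. Each table gives TPM, FPKM and coverage for 157895 transcripts, of which 15415 were assembled. Only TPM, as deposited, was tested. The deposited coverage signal served for the aligned depth and for the voom alternative, and the deposited FPKM was not used. TPM is a share of each library, so a gene's value also moves with other abundant RNA.

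Gene TPM was the sum over annotated transcripts, matched by identifier to GENCODE M21, and over 12222 assembled transcripts of the same locus and strand that overlap the gene's exons. Of these, 1543 overlapped more than 1 gene. The files hold no read counts, so a count model was not the main test. The test was limma 3.58.1 under R 4.3.3 (eBayes with trend), two-sided and with no covariate beside the salt, run on log2(TPM + 1) for genes with a mean of at least 1 TPM, with Benjamini-Hochberg adjustment over all of them. Fold changes on this scale understate those of low genes. An exact permutation test of 3 against 2 libraries cannot go below 0.1 and was not used. The fit was tested on simulated data. Fold is the ratio of mean TPM, and ± gives the SD.

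The genes and pathway lists were chosen with earlier results of these data known. Values in every library were given for genes of the list past the threshold, the 10 with the highest mean TPM and the 10 with the smallest p. From each pathway list, genes past the threshold were named, or the 2 with the smallest p. The alternatives were another pseudocount (0.1), another minimum (5 TPM) and none, annotated transcripts alone, 2 rescalings, voom, a replicate block, and leaving out each library.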

Additional observations from a re-analysis of the deposited data

How the results depend on the processing

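The call of Zbp1 rested on every library but chloride replicate 3. Called interferon-stimulated genes numbered 0 higher under every setting run; lower, they were 0 with no minimum and with annotated transcripts alone, 2 with median-of-ratios scaling (Zbp1, Gbp3), 2 with TPM over protein-coding genes (the same genes), 4 with voom (Gbp3, Gbp2, Cxcl10, Irgm1), and 0 to 2 with a library left out. All tested genes gave 182 higher and 68 lower. With no minimum these were 2 and 1, with annotated transcripts alone 5 and 6, with median-of-ratios scaling 369 and 156, with protein-coding TPM 336 and 181, and with voom 692 and 376. With a library left out they ran from 8 to 124 and from 7 to 45. Pathway genes called higher were 2, 2 and 3 with these last scalings and voom, and 0 to 1 with a library left out. Pathway genes called lower were 0 with no minimum and with annotated transcripts alone, 4 with voom, and 0 to 1 with a library left out. Replicate numbers 2 and 3 occur in both groups, but no label ties a number to a shared culture. Deviations of same-numbered libraries from their group means had correlations of -0.22 and -0.19. The deviations of the 2 propionate libraries are mirror images, so these correlations cannot decide whether cultures were shared. Chloride replicate 1 has no propionate library of its number, so it adds nothing to the change fitted with the replicate block. The block and the fit without chloride replicate 1 thus gave the same changes, with a list median of -0.19 in both. With the replicate block 104 genes were lower, 2 of the list (Zbp1, Ddx60), and 1 pathway gene was higher (Socs3), while Ifi47 took the place of Nmi (adjusted p 0.0832 in limma) among pathway genes called lower. Of 503 values of the list under 13 other settings, 471 kept direction and side of the threshold, and 17 in 8 genes changed sign, none past the threshold. These were Oas1g (-0.24 with annotated transcripts alone, -0.061 with voom, -0.10 with the block), Ifit3b (-0.038 with voom, -0.0082 with the block) and Stat2 (-0.077 with annotated transcripts alone). With a library left out, Ifit2 ran from -0.064 to 0.10, Ifit3b from -0.036 to 0.11, Isg20 from -0.064 to 0.56, Oasl1 from -0.13 to 0.23, Oas1g from -0.14 to 0.14, Oas3 from -0.032 to 0.22 and Irf1 from -0.13 to 0.20. The cause of these shifts was not tested. The number of libraries, 3 and 2, limits the precision of every change.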
